A study of Solanum tuberosum and Solanum acaule with 12 samples.

Results

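The regions described here are Atlantic loci whose assembled transcripts lie on several neighbouring gene models of one chromosome. A locus is the set of transcripts that share an assembly number. A gene model is a predicted gene of the genome annotation. A locus was a member where its placements fell on at least 3 different gene models of one chromosome name with start positions within 200000 bases. This held for 3183 of 60683 loci in the Atlantic table, of which 48685 had a placement. The placements alone chose the members, and the signal was not used. RNA came from shoot explants of the autotetraploid potato Solanum tuberosum cv. Atlantic. The freezing group (3 libraries) stood in a chamber that lost 2 °C per hour, starting at 22 °C and ending at -4 °C. The control group (3 libraries) had long days. The labels call the replicates biological but name no separate cultures, so each p-value reflects only how these 6 libraries vary. The values are TMM-scaled transcript signal, not counts, so sequencing depth is unknown. Identifiers matched 0 names in the reference table used here, so loci are described by position, no function is given, and shoot markers could not be checked.

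Tandem arrays are rows of related genes that arise when a gene is duplicated beside itself, often by unequal crossing-over. In plants they are known to hold many families of defence and secondary metabolism genes, and the CBF regulators of cold acclimation of Arabidopsis lie in such a row. Copies in a row may keep the same expression or diverge. In a tetraploid potato each chromosome is present in several versions, which the placement table appears to distinguish by a number after the chromosome name. These versions are called copies here.

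The placements did not bear out a tandem array for most members. For 2905 members (91.3%) a single transcript placement already lay on 3 or more gene models. Such placements were 35541 bases wide at the median, against 3996 bases for transcripts on a single gene model. The widest spanned 2467572 bases, and the largest number of gene models under a single placement was 237. Of the 3183 members, 154 met the same rule with transcripts that lay on a single gene model each, and these are called array loci here. Another 249 had at least 3 non-overlapping placements but needed transcripts on several gene models. The remaining 2780 rested on overlapping placements and are called bridged loci. Members were not independent of each other, since 2212 (69.5%) shared a cluster gene model with another member. The split by placements was made after the rule had been applied. Of the array loci, 133 also had a single placement on 3 or more gene models. Whether the gene models of an array are related copies or parts of the same gene was not tested.

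**Figure D1:**
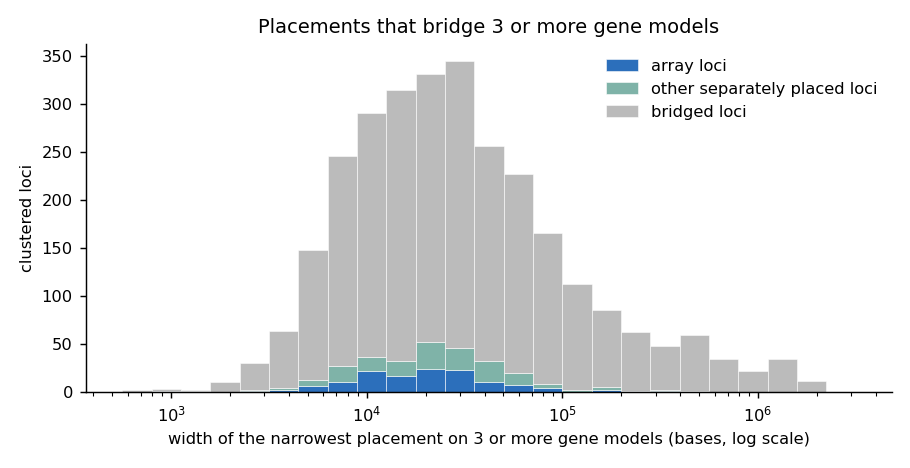
Width in bases (log axis) of the narrowest single placement that lies on 3 or more gene models, for the 2905 clustered loci that have one; bar height is the number of loci. The bulk are bridged loci with a median of 26339 bases, and 133 array loci also have such a placement beside their separate ones, with a median of 18674 bases.

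The 154 array loci formed 211 clusters. Most clusters were short, with 172 of 3 gene models, 26 of 4, 9 of 5, 3 of 6 and 1 of 7 in a window. The tightest 3 gene models of a cluster started 39133 bases apart at the median, with a range of 4241 to 191275 bases. Clusters lay on a single chromosome name for 113 array loci, on 2 for 29, on 3 for 8 and on 4 for 4. Chromosome 1, with 11121 gene models, held 27 clusters, and chromosome 4, with 7569, held 25. Chromosome 8 held 21 clusters among 5943 gene models, and chromosome 5 held 8 among 6361. Copies 1 to 4, with 18255 to 20610 gene models each, held 46, 47, 52 and 46 clusters, and names ending in 0, with 10227, held 16.

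The gene models of an array were often not neighbours in the numbering. Gene model numbers in this annotation usually rise by 10, and 215 of 492 steps between neighbours of a cluster were of that size. In 46 of 211 clusters every step was of that size. Counting transcripts on a single gene model, the most array gene models in a window of 200000 bases, 7, were those of AtlantEVm002936 on copy 3 of chromosome 8 (21860174 to 21977853). On the same chromosome AtlantEVm005070 had 6 (16512536 to 16604369). AtlantEVm020234 had 6 gene models on copy 2 of chromosome 6, from 38539806 to 38610499. AtlantEVm023060 had up to 6 in a window on chromosome 4, in the sequence with number 0. Coordinates are those of the deposited placement table, whose lowest start is 0. The build is not given in the sources used here.

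Array loci were more abundant than the typical locus. The median over loci of the mean signal was 26.02 in freezing and 22.0 in control libraries for array loci, and 9.43 and 9.58 for all loci tested. They also had more transcripts, 25 at the median, against 6 for bridged loci and 2 for placed loci outside the clusters. A locus with more transcripts has more chances to lie on 3 gene models, so this difference cannot be told apart from the rule.

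A first comparison asked whether clustered loci took a different part of the library after freezing. All clustered loci held 12.4%, 11.4% and 13.4% of the signal in the freezing libraries, against 12.8%, 13.0% and 13.9% in the control libraries. The ranges overlapped, and the means of 12.4% ± 0.984 in freezing and 13.2% ± 0.603 in control did not differ beyond the spread (SD, n = 3 each; two-sided exact permutation p = 0.3; adjusted p = 1 over 5 sets of loci). Array loci held 1.58%, 1.001% and 1.57% in freezing libraries, against 1.54%, 1.57% and 1.90% in control libraries (two-sided exact permutation p = 0.6; adjusted p = 1). With 3 libraries against 3 this test cannot go below 0.1. In bulk tissue fewer cells of a type and less RNA per cell cannot be told apart. Freezing replicate 2 was the lowest library for both sets. Without it the difference for all clustered loci was -0.355 percentage points, against -0.847 with all libraries.

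The main comparison asked which clustered loci differ after freezing. Of the 3183 members, 2500 reached a signal of 1 in at least 3 libraries and were tested. Limma called 114 of them higher and 132 lower after freezing at an adjusted p under 0.05, which is 4.56% and 5.28%. Over all 27034 loci tested the shares were 4.54% higher and 8.54% lower, so the members' share of higher loci was near the background. All loci include unplaced ones, which cannot be members. Among the 21605 placed loci tested that were no members, 4.70% were higher and 6.61% lower. Bridged loci, 2130 of which were tested, had 90 higher and 114 lower. The median log2 fold change was 0.03 for clustered loci and -0.02 for all loci tested. These calls depended on single libraries, as did those of all loci, whose range the last section gives. The calls of clustered loci became 11 higher and 18 lower without control replicate 1. They were 24 and 33 without control replicate 2, and 35 and 33 without control replicate 3. Without freezing replicate 3 they were 47 and 50, and without freezing replicate 2 they were 187 and 173. With values scaled to equal medians the balance turned, to 154 higher and 115 lower. That scaling moved the median log2 fold change of all loci from -0.02 to 0.04. It moved that of clustered loci from 0.03 to 0.08, so the shift was not particular to the members.

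Among the 152 array loci tested, limma called 13 higher (8.55%) and 10 lower (6.58%), against the same 4.54% and 8.54% of all loci. Placed loci that were no members had 4.70% and 6.61%, so the share of lower array loci was near theirs. The value of a locus sums all its transcripts, also those placed outside the array. The value of a gene model sums the transcripts of every locus that lie on it alone, so it can exceed that of an array locus. The median log2 fold change of array loci was 0.16, and 95 of 152 lay above 0. Whether array loci respond more often than other loci was not tested. All freezing libraries stood above all control libraries for 32 array loci and below for 21, beside 15.8% and 20.2% of all loci. Called array loci were not all separate regions. The 13 higher loci fell into 11 groups without a shared cluster gene model, and the 10 lower loci into 8. Array calls, like those of all loci, depended on single libraries. Without control replicate 1, 2 array loci were called higher and 3 lower. The counts were 6 and 6 without control replicate 2 and 6 and 3 without control replicate 3.

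**Figure D2:**
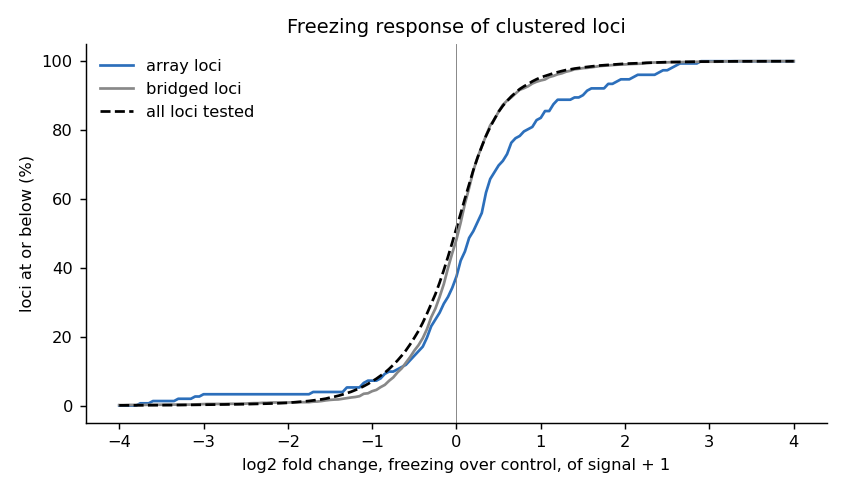
Share of loci (%) at or below each log2 fold change, freezing over control, of signal + 1, for array loci (152), bridged loci (2130) and all 27034 loci tested. Array loci lie to the right of all loci around and above 0, with medians of 0.16 and -0.02, while at the lowest fold changes they lie above them; the median of bridged loci is 0.02.

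The array locus with the largest rise was AtlantEVm021487 on copy 2 of chromosome 3, from 23617254 to 23752017. Its signal was 89.0, 60.9 and 35.9 in the freezing libraries, against 8.43, 6.27 and 6.56 in the control libraries. The groups did not overlap, and limma gave a log2 fold change of 2.88 (SE 0.33, adjusted p = 0.0072). All 3 gene models of this array rose. The middle one, Soltu.Atl.03_2G010680, carried most of the signal, with 44.2 ± 16.3 in freezing and 4.88 ± 0.605 in control (SD, n = 3 each; limma adjusted p = 0.0067). Its neighbour Soltu.Atl.03_2G010630, at the other end of the array, had 4.35 ± 1.42 in freezing against 0.101 ± 0.105 in control (limma adjusted p = 0.0072). The third, Soltu.Atl.03_2G010690, had 3.003 ± 1.46 in freezing against 0.402 ± 0.215 in control (limma adjusted p = 0.0304). The call of the locus held under all 14 alternatives, with adjusted p between 0.00213 and 0.0385.

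A second group of risen arrays lay on chromosome 4, on 3 of its copies. AtlantEVm014875 had a signal of 61.4, 48.5 and 57.1 in the freezing libraries, against 7.29, 5.30 and 14.5 in the control libraries. Every freezing library was above every control library (limma log2 fold change 2.60, SE 0.33, adjusted p = 0.00887), and the call held under all alternatives. It formed an array of 3 gene models on copy 2 (17104258 to 17127775) and of 4 on copy 3 (21566357 to 21588472). Its own transcripts on these gene models held 31.8% of the locus signal. On copy 2, Soltu.Atl.04_2G012600 averaged 23.7 ± 8.18 in freezing and 4.33 ± 2.12 in control, and its neighbour Soltu.Atl.04_2G012610 averaged 6.43 ± 2.05 and 0.786 ± 0.353 (SD, n = 3 each; limma adjusted p = 0.0218 and 0.0119). On copy 3, 2 of the 3 gene models tested rose, with summed signal of 12.1 ± 1.34 in freezing and 2.95 ± 1.34 in control (SD, n = 3 each). On copy 4 an array was split between 2 loci that share gene models, AtlantEVm014880 (22060176 to 22075488) and AtlantEVm014882. AtlantEVm014880 had 50.4, 33.9 and 20.9 in the freezing libraries, against 6.66, 3.30 and 6.48 in the control libraries (log2 fold change 2.44, limma adjusted p = 0.0128). Without control replicate 1 this call was lost (limma adjusted p = 0.0518). AtlantEVm014875, AtlantEVm014880 and AtlantEVm014882 are linked through gene models they share, so their calls are not separate evidence.

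On copy 1 of chromosome 7 the gene models of 2 array loci alternated along the same stretch. AtlantEVm015887, from 28520122 to 28543598, had a signal of 241, 122 and 190 in the freezing libraries, against 40.2, 29.5 and 54.4 in the control libraries. The groups did not overlap (limma log2 fold change 2.12, SE 0.32, adjusted p = 0.0124), but the call was lost without control replicate 1 (limma adjusted p = 0.0579). Its gene models Soltu.Atl.07_1G016370 and Soltu.Atl.07_1G016390 had nearly the same level and response, 55.1 ± 18.5 and 47.7 ± 15.3 in freezing against 11.2 ± 3.85 and 10.4 ± 2.89 in control (SD, n = 3 each; limma adjusted p = 0.0175 and 0.0172). Between them lay Soltu.Atl.07_1G016380, a gene model of the array locus AtlantEVm006088. It had 62.6, 36.7 and 112 in the freezing libraries, against 13.2, 14.6 and 11.3 in the control libraries (log2 fold change 2.21, limma adjusted p = 0.0242). The next gene model of that locus, Soltu.Atl.07_1G016400, had 13.9 in freezing and 5.10 in control and did not pass (limma adjusted p = 0.215). As a whole AtlantEVm006088 had 260.5, 169 and 446 in the freezing libraries, against 120, 149 and 126 in the control libraries, and it did not pass (limma adjusted p = 0.101). It was singled out for this position after its values were seen.

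Other risen array loci were low under control conditions. AtlantEVm014758 on copy 1 of chromosome 11 (9364455 to 9641297) had 30.5, 10.9 and 12.5 in the freezing libraries, against 1.75, 2.15 and 2.06 in the control libraries (log2 fold change 2.53, limma adjusted p = 0.0121). AtlantEVm015650 on copy 1 of chromosome 3 (29917525 to 29942242) had 24.6, 7.13 and 3.15 in the freezing libraries, against 0.408, 0.417 and 0.851 in the control libraries (limma log2 fold change 2.62, SE 0.62, adjusted p = 0.0406). Freezing replicate 1 was the highest library for both. These values are of the whole locus, and own transcripts on array gene models held 38.7% and 46.1% of the signal. The call of AtlantEVm014758 was lost without control replicate 1 (limma adjusted p = 0.0585) or 2 (0.0501). That of AtlantEVm015650 was lost without any one of the control replicates or freezing replicate 2 (limma adjusted p = 0.0603 to 0.13). When no locus was filtered out its adjusted p was 0.0578. The other array loci called higher, which the naming rule did not select, had log2 fold changes between 0.77 for AtlantEVm006116 and 1.92 for AtlantEVm021138.

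**Figure D3:**
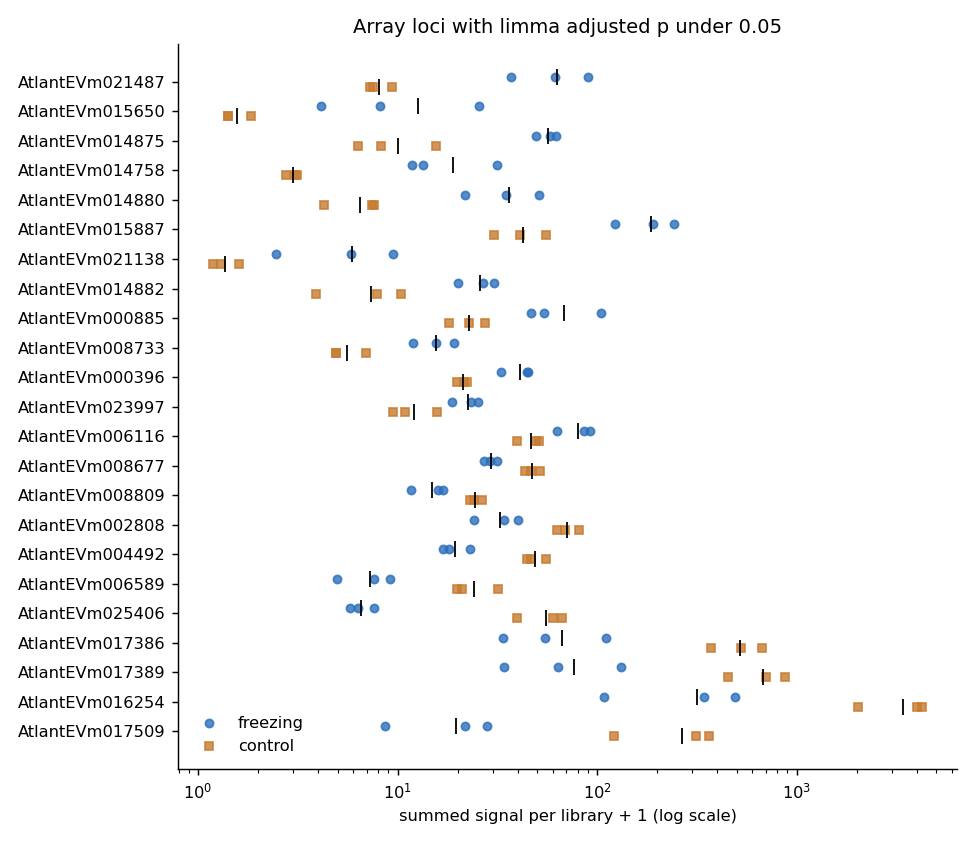
Summed signal per library + 1 (log axis) of the 23 array loci with a limma adjusted p under 0.05; circles are the 3 freezing libraries, squares the 3 control libraries and ticks the group means plus 1. The loci are ordered by log2 fold change from AtlantEVm021487 (2.88) at the top to AtlantEVm017509 (-3.78) at the bottom, and the circles and squares of a locus do not overlap.

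The abundant array locus AtlantEVm016254 had the largest absolute drop in mean signal of the array loci called, to 314 ± 195 in freezing, against 3426 ± 1224 in control (SD, n = 3 each). It had 107, 493 and 343 in the freezing libraries, against 4251, 2019 and 4006 in the control libraries. The groups did not overlap, and limma gave a log2 fold change of -3.63 (SE 0.61, adjusted p = 0.0165). The call was lost without control replicate 1 (limma adjusted p = 0.071) or 3 (0.0635). Its arrays lay on chromosome 2, with 3 gene models on copy 2 (29365272 to 29386690) and 5 on copy 4 (25619513 to 25799875). Its own transcripts on these gene models held 44.0% of the locus signal. All 3 gene models fell on copy 2, and 4 of 5 fell on copy 4. On copy 4 the gene model Soltu.Atl.02_4G012030 carried the most, with 27.5 ± 15.4 in freezing and 326 ± 84.7 in control (SD, n = 3 each; limma adjusted p = 0.0115). A separate gene model of this array, Soltu.Atl.02_4G011860, started at 25619513, well before the next at 25775757. It averaged 0.167 ± 0.0643 in freezing and 11.4 ± 14.7 in control and did not pass (limma adjusted p = 0.114). On copy 2 most of the signal lay on Soltu.Atl.02_2G012920, with 72.0 ± 45.1 in freezing and 1025 ± 472 in control (SD, n = 3 each; limma adjusted p = 0.0226).

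A second locus was interleaved with it on copy 2. AtlantEVm017509, from 29357436 to 29384568, had 7.68, 27.1 and 20.8 in the freezing libraries, against 363, 121 and 313 in the control libraries (limma log2 fold change -3.78, SE 0.57, adjusted p = 0.0125). It shares Soltu.Atl.02_2G012920 with AtlantEVm016254. Of its other gene models, Soltu.Atl.02_2G012910 fell to 5.10 ± 2.74 in freezing, against 23.7 ± 10.5 in control (SD, n = 3 each; limma adjusted p = 0.0433). The bridged locus AtlantEVm017522 covers the same stretches of copies 2 and 4 and had 22.9, 115 and 83.1 in the freezing libraries, against 1244, 574 and 1195 in the control libraries (log2 fold change -3.95, limma adjusted p = 0.0143). Without control replicate 1 or 3 both calls were lost (limma adjusted p = 0.0572 and 0.0511 for AtlantEVm017509, 0.0646 and 0.0567 for AtlantEVm017522). These 3 loci describe a single pair of regions.

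A further fallen array lay near the start of chromosome 3, copy 3. AtlantEVm017386 (754249 to 767229) had 32.8, 110 and 53.6 in the freezing libraries, against 666, 373 and 524 in the control libraries (limma log2 fold change -3.11, SE 0.45, adjusted p = 0.0114). AtlantEVm017389 (760515 to 779090) had 33.0, 130 and 62.7 in the freezing libraries, against 872, 454 and 702 in the control libraries (limma log2 fold change -3.31, SE 0.50, adjusted p = 0.0129). The groups did not overlap for either locus. In both, control replicate 2 was the lowest control library and freezing replicate 2 the highest freezing library, which was also so for AtlantEVm016254 and AtlantEVm017509. Gene models with signal and gene models listed at 0 stood side by side here. Soltu.Atl.03_3G000950 averaged 89.8 ± 56.2 in freezing and 549 ± 159 in control, and Soltu.Atl.03_3G000960 averaged 54.7 ± 32.1 and 397 ± 132 (SD, n = 3 each; limma adjusted p = 0.022 and 0.0193). Soltu.Atl.03_3G000970 and Soltu.Atl.03_3G000990 were listed at 0 in all 6 libraries, where transcripts on several gene models are not counted, and Soltu.Atl.03_3G001030 fell to 25.3 ± 14.8 in freezing, against 433 ± 212 in control (SD, n = 3 each; limma adjusted p = 0.0123). The bridged locus AtlantEVm017393 lies in the same stretch and fell too (log2 fold change -3.65, limma adjusted p = 0.017). AtlantEVm017386, AtlantEVm017389, AtlantEVm017393 and the bridged locus AtlantEVm101754 are linked through shared cluster gene models, so their calls are not separate evidence. Without control replicate 1 the calls of AtlantEVm017386 and AtlantEVm017389 were lost (limma adjusted p = 0.0552 and 0.0597), and without control replicate 3 that of AtlantEVm017389 (0.0519). The call of AtlantEVm017393 was lost without control replicate 1 or 3 or freezing replicate 3 (limma adjusted p = 0.0697, 0.0651 and 0.0536).

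AtlantEVm025406 had the smallest standard error of the 6 array loci named as lower. It had 5.34, 6.61 and 4.77 in the freezing libraries, against 59.1, 65.4 and 38.5 in the control libraries (limma log2 fold change -3.05, SE 0.23, adjusted p = 0.00415). Its array on copy 2 of chromosome 9 (11166620 to 11208344) has 3 gene models with unbroken numbers, and all 3 fell. Its own transcripts on these gene models held 37.3% of the locus signal. Soltu.Atl.09_2G008160 had the highest level, 0.967 ± 0.66 in freezing and 13.7 ± 1.32 in control (SD, n = 3 each; limma adjusted p = 0.00423). The call held under all 14 alternatives, with adjusted p between 0.000769 and 0.0356. AtlantEVm006589 on chromosome 8, copy 2 (47128539 to 47137292), the tightest array of the loci that fell, had whole-locus signal of 8.21, 3.96 and 6.64 in the freezing libraries, against 19.98, 30.9 and 18.8 in the control libraries (log2 fold change -1.75, limma adjusted p = 0.0166). Its array gene models held 14.3% of that signal and summed to 0.729 ± 0.384 in freezing and 3.49 ± 1.27 in control (SD, n = 3 each). The call of AtlantEVm006589 was lost without any one of the control replicates (limma adjusted p = 0.0503 to 0.0636).

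**Figure D4:**
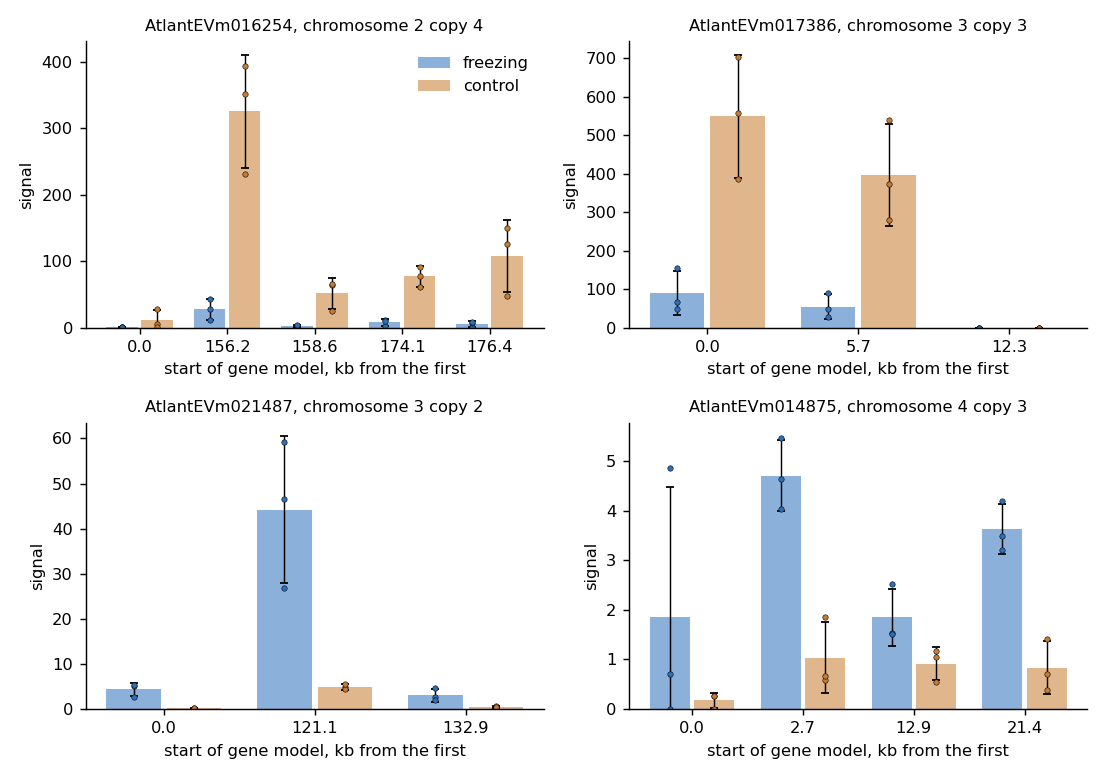
Signal of each gene model in 4 arrays, in order along the array and labelled with the distance of its start from the first (kb, not to scale); bars are means, whiskers the SD and points the 3 libraries of a group, with freezing left of control. In AtlantEVm016254 on chromosome 2 copy 4 and AtlantEVm017386 on chromosome 3 copy 3 the gene models with signal average lower after freezing, and in AtlantEVm021487 on chromosome 3 copy 2 and AtlantEVm014875 on chromosome 4 copy 3 they average higher, while the levels of neighbours within an array are unequal.

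Within an array the gene models were unequal. The leading gene model held 58.0% of the summed signal of its cluster at the median, with a range of 26.4% to 100%. It held at least 90% in 15 of 211 clusters and under 50% in 56. The same gene model led in the freezing and the control means in 170 clusters, and another led in 41. Of the 699 gene models in array clusters, 355 reached a signal of 1 in at least 3 libraries. At this level 48 clusters had 3 or more tested gene models and 38 had none. Only transcripts on a single gene model enter these sums, but they include transcripts of other loci on the same gene models. The own transcripts of an array locus on its array gene models held 29.5% of its signal at the median. For AtlantEVm000690 these averaged 2.42 over all libraries, while its cluster summed to 19.9 in freezing and 14.9 in control. The assignment of reads that match more than 1 near-identical copy is not described, which makes the level of any single gene model uncertain.

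Of the 355 gene models of arrays, limma called 30 higher (8.45%) and 31 lower (8.73%), against 3.18% and 3.89% of all 37846 gene models tested (7.07% in either direction). A test of this difference was not made, and gene models of an array or of its copies are not independent. Over all 7061 tested gene models of clusters the calls were 273 higher and 319 lower. The 61 calls in arrays lay in 41 clusters, of which 18 had at least 2 called gene models. No cluster had calls in both directions. In the 126 clusters with at least 2 tested gene models, all log2 fold changes were above 0 in 44, all below 0 in 25 and on both sides in 57. The range within a cluster was 0.58 at the median and 2.58 at most. The array calls depended on single libraries, as did those of all gene models of clusters. The array calls became 3 higher and 3 lower without control replicate 1. Counts were 4 and 7 without control replicate 2, and 10 and 8 without control replicate 3. They were 15 and 11 without freezing replicate 3.

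AtlantEVm002936, with the 7 array gene models in a window, had a partial response. The locus as a whole had 62.8, 81.6 and 81.1 in the freezing libraries, against 30.8, 48.7 and 47.5 in the control libraries. The groups did not overlap, but the locus missed the threshold (limma log2 fold change 0.83, SE 0.22, adjusted p = 0.0541). It was called with array weights, with values scaled to equal medians and when unplaced transcripts were left out, at an adjusted p of 0.013 at the lowest. Array weights called many more loci over the whole table than the 13.1% of the reported fit. A call under array weights alone therefore says little, here and in the paragraphs below. On copy 2 (46737619 to 46768345) the gene model Soltu.Atl.08_2G016550 held 96.4% of the cluster's signal, and it had 13.3, 7.43 and 9.52 in the freezing libraries, against 2.38, 2.41 and 2.77 in the control libraries (log2 fold change 1.62, limma adjusted p = 0.0126). On copy 3 Soltu.Atl.08_3G014260 had 3.30 in freezing and 0.73 in control (log2 fold change 1.31, limma adjusted p = 0.0074). Its next neighbour Soltu.Atl.08_3G014270 had 1.91 in freezing and 2.54 in control (log2 fold change -0.31, limma adjusted p = 0.548). On copy 4 Soltu.Atl.08_4G017750 rose (log2 fold change 1.12, limma adjusted p = 0.0482).

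Arrays of the same locus on different copies differed in number of gene models and in level. AtlantEVm007086 had arrays of 3, 5, 5 and 5 gene models on copies 1 to 4 of chromosome 3. Their summed signal was 4.78, 33.0, 6.84 and 36.8 in freezing and 5.78, 23.9, 10.2 and 40.1 in control. The locus as a whole hardly moved (130 ± 22.0 in freezing and 133 ± 26.2 in control, SD, n = 3 each; limma adjusted p = 0.959). A single gene model of its arrays passed, Soltu.Atl.03_4G016770, with 0.92 in freezing and 2.06 in control (log2 fold change -0.67, limma adjusted p = 0.0426). AtlantEVm000445 on chromosome 10 also had arrays on 4 chromosome names, with 3 to 5 gene models each. Its 4 arrays summed to 8.12, 4.18, 10.9 and 5.28 in freezing and to 6.85, 3.66, 10.6 and 5.01 in control, for the names ending in 0, 2, 3 and 4. The locus as a whole missed the threshold (limma adjusted p = 0.16), and array weights alone called it (0.033). Among 40 array loci with at least 2 arrays at a group mean of 1 or more, all arrays were higher in freezing for 16, all lower for 7, and 17 had arrays on both sides. These counts are of means and carry no test.

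Some array loci varied more between replicates than between groups. AtlantEVm013155 had arrays on all of copies 1 to 4 of chromosome 1. Its signal was 187, 10.7 and 2.20 in the freezing libraries, against 62.7, 9.85 and 6.75 in the control libraries (limma log2 fold change 0.13, SE 1.54, adjusted p = 0.966). Replicate 1 was the highest library of both groups on all 4 copies. On copy 2, for example, the summed signal was 74.4, 1.04 and 0.33 in the freezing libraries and 21.8, 2.02 and 1.36 in the control libraries. AtlantEVm023626, with 5 gene models on copy 1 of chromosome 9 (1001912 to 1060766), had 3270, 164 and 549 in the freezing libraries, against 136, 240 and 117 in the control libraries (limma log2 fold change 2.08, SE 1.01, adjusted p = 0.225). With array weights AtlantEVm023626 was called (limma adjusted p = 0.0395). Its 3 abundant gene models shared the high value of freezing replicate 1. Soltu.Atl.09_1G001040, for example, had 946, 38.2 and 144 in the freezing libraries. AtlantEVm018200 had 821, 142 and 534 in the freezing libraries, against 74.1, 591 and 138 in the control libraries, and the groups overlapped (limma adjusted p = 0.469). AtlantEVm005070, low throughout, had 6.67, 21.6 and 0.709 in the freezing libraries, against 8.25, 6.89 and 10.1 in the control libraries (limma adjusted p = 0.754), and array weights alone called it (0.0492).

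**Figure D5:**
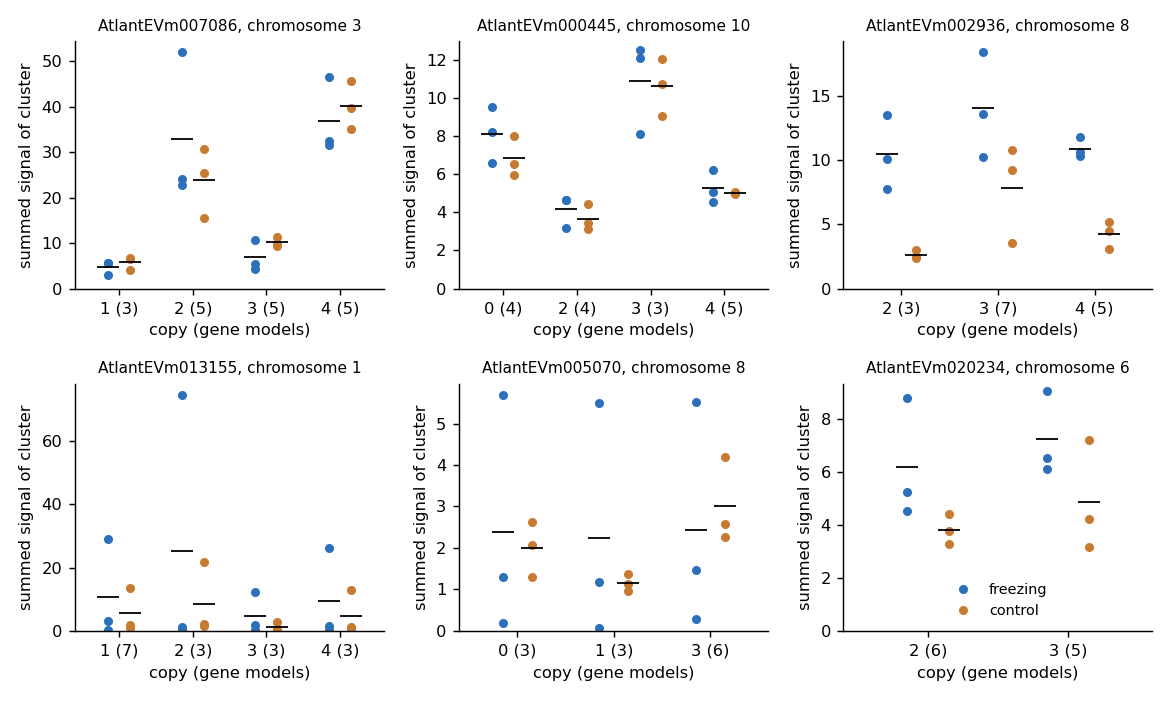
Summed signal of the array gene models of 6 loci, by copy number in the chromosome name, with the number of gene models in brackets; points are the 3 libraries of a group, with freezing left of control, and dashes are the group means. AtlantEVm002936 is higher in freezing on copies 2 and 4, AtlantEVm013155 has 1 high library in each group on every copy, and the arrays of AtlantEVm007086 differ more between copies than between groups.

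The remaining array loci of high signal or with many gene models did not pass the test. Their values here are those of the whole locus. Own transcripts on array gene models held 18.1% of the signal of AtlantEVm020177, 18.2% of AtlantEVm013899 and 21.1% of AtlantEVm015129. The shares were 28.4% for AtlantEVm020234 and 68.6% for AtlantEVm023060. AtlantEVm020177, the most abundant array locus, had 2394, 3844 and 7024 in the freezing libraries, against 3485, 5280 and 6814 in the control libraries (limma adjusted p = 0.725). AtlantEVm013899 averaged 429 ± 155 in freezing and 483 ± 148 in control, and AtlantEVm015129 averaged 413 ± 156 and 514 ± 59.5 (SD, n = 3 each; limma adjusted p = 0.747 and 0.452). AtlantEVm020234 averaged 46.6 ± 17.3 in freezing and 31.1 ± 9.86 in control, and AtlantEVm023060 averaged 2.93 ± 1.01 and 5.01 ± 1.24 (SD, n = 3 each; limma adjusted p = 0.309 and 0.16). With array weights AtlantEVm023060 was called (limma adjusted p = 0.0211). AtlantEVm023060 combined many gene models with a low level: of the 9 in its windows on the chromosome 4 sequence with number 0, a single one was tested.

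The bridged loci with the largest rises had a single placement across 3 or more gene models, as had 2619 of the 2780 bridged loci. AtlantEVm010607 had 292, 325 and 188 in the freezing libraries, against 33.1, 18.8 and 28.2 in the control libraries (limma log2 fold change 3.28, SE 0.28, adjusted p = 0.00453). Its windows held 69 gene models on copy 2 of chromosome 2 and 5 on copy 4 (34152810 to 34171396). AtlantEVm006887 had 226, 276 and 268 in the freezing libraries, against 37.4, 32.8 and 46.5 in the control libraries (limma log2 fold change 2.70, SE 0.18, adjusted p = 0.0033). One of its clusters held 3 gene models on copy 1 of chromosome 4 (10021334 to 10029070). Both calls held under all 14 alternatives. AtlantEVm017638 and AtlantEVm016309 share a start on copy 2 of chromosome 3 (23026254) and rose to 30.8 ± 19.4 and 21.8 ± 11.8 in freezing, against 2.21 ± 1.40 and 2.14 ± 1.81 in control (SD, n = 3 each; limma adjusted p = 0.0201 and 0.0235). Both calls were lost without freezing replicate 3 (limma adjusted p = 0.0531 and 0.0669), without control replicate 1 (0.0753 and 0.0848) and without control replicate 2 (0.0682 and 0.0844). The call of AtlantEVm017638 was also lost without control replicate 3 (0.0504). AtlantEVm017638 and AtlantEVm016309 are linked through shared cluster gene models, so their calls are not separate evidence.

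The largest falls of bridged loci were in narrow clusters of 3 gene models. AtlantEVm018381, on copy 3 of chromosome 3 (55076047 to 55083770), had 24.0, 58.2 and 48.4 in the freezing libraries, against 1168, 727 and 1141 in the control libraries (limma log2 fold change -4.57, SE 0.36, adjusted p = 0.00416). AtlantEVm032671, on copy 1 of chromosome 6 (21049783 to 21054174), had 0, 0.142 and 0.061 in the freezing libraries, against 30.5, 12.1 and 28.0 in the control libraries (limma log2 fold change -4.42, SE 0.35, adjusted p = 0.00416). Both calls held under every alternative that gave them a value. AtlantEVm101754 was a single transcript placed at the same positions on copies 1 and 2 of chromosome 3 (544142 to 551984). It averaged 1.70 ± 1.30 in freezing and 49.1 ± 35.9 in control (SD, n = 3 each; log2 fold change -4.06, limma adjusted p = 0.0147), and its call was lost without control replicate 1 or 3 (0.0523 and 0.0586). Shared cluster gene models link it to the lower loci AtlantEVm017386, AtlantEVm017389 and AtlantEVm017393 described above, so its call is not separate evidence.

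The most abundant members were mostly not called. AtlantEVm023341, placed on copies 1 to 4 of chromosome 2 (32982027 to 32992044 on copy 1), had 4394, 14821 and 4381 in the freezing libraries, against 8685, 4172 and 5754 in the control libraries (limma adjusted p = 0.901). Freezing replicate 2 stood apart, and without it the log2 fold change turned, to -0.43 against 0.15. AtlantEVm006434, placed on 3 scaffolds, had 3499, 2767 and 3198 in the freezing libraries, against 1659, 2070 and 1383 in the control libraries. The groups did not overlap, yet the locus missed the threshold (limma log2 fold change 0.90, SE 0.28, adjusted p = 0.0869), and array weights alone called it (0.0195). AtlantEVm003494 on chromosome 7 averaged 1992 ± 569 in freezing and 2921 ± 697 in control, and AtlantEVm035484 on chromosome 9 averaged 2268 ± 979 and 1574 ± 324 (SD, n = 3 each; limma adjusted p = 0.323 and 0.448). With array weights AtlantEVm035484 was called (limma adjusted p = 0.0468).

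Members with the most gene models owed them to very wide placements. AtlantEVm001092 lay on 237 gene models of chromosome 7 (19900698 to 21621205), and its narrowest placement on 3 or more of them was 1718920 bases wide. AtlantEVm008444 lay on 222 of copy 4 of chromosome 4, and AtlantEVm006183 on 215 of copy 1 of chromosome 3. None of these 3 loci passed the test (limma adjusted p = 0.115, 0.202 and 0.881), although AtlantEVm001092 was called with array weights (0.0196) and without freezing replicate 2 (0.0423). AtlantEVm007770, across 180 gene models on copy 1 of chromosome 6, had 84.9, 76.0 and 61.9 in the freezing libraries, against 28.2, 29.0 and 44.2 in the control libraries (log2 fold change 1.13, limma adjusted p = 0.0241). Its call was lost without freezing replicate 1 or control replicate 1 or 2 (limma adjusted p = 0.0513, 0.0942 and 0.0893). AtlantEVm009078, across 198 gene models on chromosome 3, passed with all libraries (log2 fold change 0.65, limma adjusted p = 0.0483) but not without any one of the 6 (0.0522 to 0.16). It also missed the threshold with a pseudocount of 0.1 (limma adjusted p = 0.0509), no filter (0.0756), the stricter filter (0.0625) and placed transcripts only (0.0546). The clusters with the most gene models called were also wide, but ranking by count favours clusters with many tested gene models. Their counts stand beside 3.18% higher and 3.89% lower of all gene models. AtlantEVm041306 on copy 3 of chromosome 4 had 7 higher and 3 lower of 79 tested. AtlantEVm020249 and AtlantEVm020253 on chromosome 9, in the sequence with number 0, had 6 higher and 1 lower of 69 and of 66, and were named among several clusters with 6 for their higher signal. Their windows began close together, at 1126285 and 1121597, with 153 gene models each, so these calls may be of the same gene models. AtlantEVm008444 had 6 higher and 8 lower of 123. AtlantEVm039533 on copy 2 of chromosome 2 had 2 higher and 7 lower of 45, and AtlantEVm001736 on copy 2 of chromosome 1 had 3 higher and 6 lower of 70. Some narrower clusters had larger shares called. AtlantEVm017522 had 0 higher and 5 lower of 5 tested on copy 2 of chromosome 2. AtlantEVm016254 on copy 4 of chromosome 2 and AtlantEVm017386 on copy 3 of chromosome 3 each had 0 higher and 5 lower of 6. AtlantEVm017522 and AtlantEVm016254 are linked through shared cluster gene models, so their counts are not separate evidence. These narrower clusters were also taken from the ranking by number of gene models called lower. Members on the most chromosome names were AtlantEVm000314 with clusters on 11, AtlantEVm004216 with 10 and AtlantEVm000044 with 7, a number it shares with other loci of lower signal. Each averaged higher in freezing by a log2 fold change of 0.10 to 0.44, and none passed (limma adjusted p = 0.332 to 0.695).

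At the 200000-base limit, 10 loci had their tightest 3 gene models between 180000 and 200000 bases apart and 16 between 200000 and 220000. Inside it, AtlantEVm035361 (195980 bases) averaged 33.8 ± 25.05 in freezing and 48.7 ± 18.9 in control, and AtlantEVm002708 (185258 bases) averaged 28.3 ± 25.2 and 46.3 ± 28.7 (SD, n = 3 each). Outside it, AtlantEVm021172 (215433 bases) averaged 526 ± 634 in freezing and 63.1 ± 40.6 in control, and AtlantEVm030117 (217417 bases) averaged 273 ± 55.3 and 261 ± 20.1 (SD, n = 3 each).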

How the data were processed

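Shoot RNA of Atlantic was sequenced as stranded mRNA libraries, 3 after freezing and 3 under control conditions. The authors deposited a signal per assembled transcript and library, which by the table's name and totals (961746 to 1102442) has the form of TPM scaled by TMM factors; it keeps no depth. The submitters' processing notes name Trimmomatic 0.39 and DESeq2, with no role. No source used here gives the aligner, assembler or build. A table of other deposited values without header gives, for each transcript, gene model, chromosome name, start and end. All value columns were matched to samples by name.

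Signal was summed per locus, and per gene model over the transcripts of any locus that lay on a single gene model. Transcripts on several gene models, 29.8% of those placed, were left out of the gene model sums. Features that reached 1 in 3 or more libraries were fitted with limma 3.58.1 (R 4.3.3) on log2(signal + 1), with a variance trend, two-sided, Benjamini-Hochberg adjusted over all features, at 0.05. On this scale the changes of low loci are understated. The steps were tested on simulated data. Shares were compared by exact permutation. Pandas 2.3.3 read the tables. Named loci follow a rule: the 6 of highest mean, up to 6 per direction with the largest change among called loci whose higher group averaged 10 or more, without overlap, the 5 with most gene models and the 3 on most chromosome names, for all members and, added after the placements were seen, for array loci. The members and the rules were chosen with earlier results of these data known. The column names give a freezing and a control library the same replicate label. Deviations of same-numbered libraries correlated at 0.08, -0.23 and 0.05, which cannot exclude pairing with 3 libraries per group. The libraries were not treated as pairs, and the last section gives the calls with a replicate block. The S. acaule libraries were not used.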

Additional observations from a re-analysis of the deposited data

How the results depend on the processing

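Counts are given as higher and lower unless a single total is named. All Atlantic loci called (3535) became 1590 with the stricter filter (1 or more in all 6 libraries), 9346 with array weights, 1052 in the fit with the replicate block, 2104 where a 2-fold change was also required and 2318 with placed transcripts only. The 114 and 132 clustered loci became 71 and 75 with no filter on low values, 71 and 74 with the stricter filter, 459 and 372 with array weights, 33 and 29 under the replicate block, and 73 and 70 where a 2-fold change was required. They became 74 and 82 with at least 4 gene models, 13 and 10 with transcripts on a single gene model, and 24 and 18 with at least 3 non-overlapping placements, where fewer loci are members. The 273 and 319 gene models of clusters became 180 and 156, 1154 and 920, and 42 and 56 with the stricter filter, array weights and replicate block, 30 and 31 with transcripts on a single gene model, and 79 and 77 with non-overlapping placements. Array loci became 41 and 23 with array weights and 6 and 2 with the replicate block. Array gene models became 15 and 15, 82 and 61, and 10 and 8 with the stricter filter, array weights and block. Causes of these shifts were not tested, except that narrower rules hold fewer members. The non-overlapping placements and all array counts were chosen after seeing the data. With the block 7062 loci had an unadjusted p under 0.05, against 8063 without it.

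With 1 library left out, the counts ran from 575 to 4334 for all loci, 11 to 187 and 18 to 173 for clustered loci, 2 to 14 and 3 to 12 for array loci, 14 to 478 and 28 to 404 for gene models of clusters, and 3 to 48 and 3 to 36 for those of arrays. The difference in the share of signal ran from -1.34 to -0.355 percentage points and kept its direction under all other settings. The replicate block ended the calls of AtlantEVm016254, AtlantEVm017386, AtlantEVm017389, AtlantEVm017393, AtlantEVm017509, AtlantEVm017522, AtlantEVm101754, AtlantEVm006589, AtlantEVm007770, AtlantEVm009078 and AtlantEVm015650 (limma adjusted p = 0.0501 to 0.129). Of 45 named loci, 8 turned direction, none of them called in the reported fit; AtlantEVm005070 was called with array weights (limma adjusted p = 0.0492). Their log2 fold changes with 1 library left out ran from -1.36 to 0.50 for AtlantEVm005070 and from -0.13 to 0.25 for AtlantEVm006183. They ran from -0.17 to 0.12 for AtlantEVm007086 and from -1.52 to 1.42 for AtlantEVm013155. They ran from -0.47 to 0.049 for AtlantEVm013899, from -0.72 to 0.054 for AtlantEVm020177 and from -0.43 to 0.44 for AtlantEVm023341. With array weights the values were -0.16 for AtlantEVm006183, -1.68 for AtlantEVm013155, 0.021 for AtlantEVm015129, 0.26 for AtlantEVm020177 and -0.33 for AtlantEVm023341. With median scaling AtlantEVm007086 had 0.041. Depth is unknown, so no counting limit can be given.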
